A study of Canis lupus familiaris with 4 samples.

Results

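The miRNAs that lie inside the HOX gene clusters, miR-10, miR-196 and miR-615, were examined in small RNA libraries of extracellular vesicles (EVs) from a pair of canine mammary carcinoma cell lines. The members were the rows of the deposited miRNA table named cfa-mir-10a, cfa-mir-10b, cfa-mir-196a, cfa-mir-196b or cfa-mir-615, with or without a copy number. This gave 6 rows of 673 in all, of which 508 are known canine miRNAs, and no 2 of the 6 had equal values. All 6 were above 0 in every library and passed the filter on low rows, which left 326 rows for testing. EVs came from untreated cultures of CHMp, established from a primary mammary tumor (pTDEs), and of CHMm, established from a metastasis of the same dog (mTDEs), both kept without serum before collection. Each cell line had 2 libraries. The study calls them biological replicates, the labels do not say what separates them, and both cell lines stand for 1 animal. The paper names 2 sequencing platforms and 2 read lengths, without assigning them to libraries.

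HOX genes encode transcription factors that set position along the body axis, and their clusters also carry miRNA genes that act back on HOX transcripts. miR-10b is known in breast cancer as a miRNA that is induced by the transcription factor TWIST1, represses HOXD10 and promotes invasion and metastasis. miR-10a is its close relative from another cluster, miR-196a and miR-196b are repressors of HOX genes such as HOXB8, and miR-615 is a miRNA of the HOXC cluster with fewer known targets. In the RefSeq annotation of the UU_Cfam_GSD_1.0 dog assembly, which is not the CanFam3.1 build used for the table, all 6 rows matched a miRNA gene by name. MIR10A lay between HOXB4 and HOXB5, within the span annotated for HOXB3, and MIR196A-1 between HOXB9 and HOXB13. MIR196A-2 lay next to HOXC10, and MIR615 within the spans of HOXC4 and HOXC5. MIR196B lay between HOXA9 and HOXA10, and MIR10B between HOXD8 and HOXD3. Every HOX cluster was thus represented.

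The deposited whole numbers had the form of log2(CPM + 1) times a constant of the library and were converted back to CPM, the reads of a miRNA per 1000000 reads of the library. Summed over all rows, where a read may count in the rows of several copies, the pTDE libraries had about 6296049 and 5053296 reads and the mTDE libraries about 3457427 and 2330435 reads, so that depth differed between the cell lines along with their origin. A row under 3 reads would lie below 0.476 to 1.29 CPM, depending on the library. The epithelial miRNAs (miR-200a, miR-200b, miR-200c, miR-141, miR-429, miR-205 and miR-203), which a mammary carcinoma would carry, had 7 of 7 rows above 0 in each mTDE library, with a sum of 23718 to 26413 CPM. Only 3 of 7 were above 0 in each pTDE library, with a sum of 73.9 to 104 CPM, and miR-200a, miR-200b, miR-141 and miR-429 were listed at 0 in both. Summed levels of mesenchymal miRNAs (589 to 926 CPM in pTDEs, 81.6 to 762 CPM in mTDEs) overlapped between the cell lines. So did those of blood miRNAs (145.3 to 525 CPM in pTDEs, 201 to 1574 CPM in mTDEs), a sum that left out miR-486. The miR-486 row was at 109.8 and 348.6 CPM in the pTDE replicates, against 485.9 and 1397 CPM in the mTDE replicates. Its libraries did not overlap between the cell lines. Muscle miRNAs were at 232 to 370 CPM in pTDEs and 0 to 133.1 CPM in mTDEs, the liver miRNA miR-122 was at 98.5 to 158 CPM and 364 to 570 CPM, and nervous system miRNAs were at 1186 to 1605 CPM and 749 to 852 CPM. Nearly all of the nervous system sum was miR-9. The other miRNA of that list, miR-124, was at 0.64 and 2.77 CPM in the pTDE replicates and at 0 in both mTDE libraries. Forward and reverse reads of a sample had been merged, so that 1 fragment can count as 2 reads. Of the rows with 1 to 60 reads, 68.6% to 83.8% had an even number, depending on the library, and counting intervals are therefore computed on fragments, taken as 0.5 of the reads and rounded down. The part of the marker differences and of depth in the results given here was not tested.

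miR-10b dominated the HOX cluster miRNAs of both cell lines, and its level did not separate them. cfa-mir-10b was at 6397 and 22699 CPM in pTDE replicates 1 and 2 and at 12580 and 17628 CPM in mTDE replicates 1 and 2. The pTDE libraries were the lowest and the highest of all, with both mTDE libraries between them. It took 0.640% and 2.27% of the CPM of the pTDE libraries and 1.26% and 1.76% of the mTDE libraries, and ranked between 11 and 25 among the rows of a library. Its mean level was 14548 ± 11527 CPM in pTDEs, against 15104 ± 3570 CPM in mTDEs (SD, n = 2 each). The log2 fold change, pTDEs over mTDEs on the log2(CPM + 1) scale, was -0.31 (95% interval -2.19 to 1.58, limma adjusted p = 0.825). This interval spans several-fold differences in either direction.

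The pTDE replicates differed 3.55-fold from each other in miR-10b, against 1.40-fold in mTDEs. On the log2(CPM + 1) scale the difference between the pTDE replicates was 1.83, and the median over the 326 rows was 0.64. Of those rows, 10.4% had a larger difference between the pTDE replicates than miR-10b. Its log2 fold change was 0.61 without pTDE replicate 1 and -1.22 without pTDE replicate 2, so that 1 library decided the direction.

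miR-10a was a minor species next to miR-10b and was lower in both pTDE libraries than in both mTDE libraries. cfa-mir-10a was at 37.6 and 63.9 CPM in pTDE replicates 1 and 2, which are 237 and 323 reads. In mTDE replicates 1 and 2 it reached 148 and 112 CPM, from 512 and 262 reads. The exact 95% binomial interval of each pTDE library, 31.0 to 44.9 CPM and 54.3 to 74.4 CPM, lay below that of each mTDE library, 130.5 to 167 CPM and 94.0 to 133.4 CPM. Such intervals hold at most the error of counting, because PCR copies of a molecule are not independent. Its mean was 50.8 ± 18.6 CPM in pTDEs, against 130.3 ± 25.2 CPM in mTDEs (SD, n = 2 each), a 2.57-fold higher level in mTDEs. The difference did not pass the test across all rows, at a log2 fold change of -1.38 with a standard error of 0.71 (limma adjusted p = 0.335).

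The miR-196 rows were higher in both pTDE libraries than in both mTDE libraries. cfa-mir-196a-2, from the HOXC cluster, was at 745 and 1048 CPM in pTDE replicates 1 and 2, against 435 and 527 CPM in mTDE replicates 1 and 2. cfa-mir-196a-1, from the HOXB cluster, was at 655 and 879 CPM in the pTDE replicates, against 393 and 457 CPM in the mTDE replicates. cfa-mir-196b, from the HOXA cluster, was at 436 and 428 CPM in the pTDE replicates, against 265 and 240 CPM in the mTDE replicates. In each row the lower pTDE library exceeded the higher mTDE library, by 1.41-fold in cfa-mir-196a-2, 1.43-fold in cfa-mir-196a-1 and 1.62-fold in cfa-mir-196b. The ratio of the means, pTDEs over mTDEs, was 1.864, 1.805 and 1.713 in the same order. The log2 fold changes were 0.88 for cfa-mir-196a-2 (95% interval -0.28 to 2.04), 0.84 for cfa-mir-196a-1 (-0.31 to 1.99) and 0.78 for cfa-mir-196b (-0.42 to 1.97). None passed the test across all rows, with limma adjusted p = 0.330, 0.335 and 0.386. cfa-mir-196b had the closest pTDE replicates of the 6 members, a 1.02-fold difference.

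miR-615 was the least abundant member and was lower in both pTDE libraries than in both mTDE libraries. cfa-mir-615 was at 2.54 and 2.77 CPM in pTDE replicates 1 and 2, from 16 and 14 reads. In mTDE replicates 1 and 2 it reached 6.94 and 12.9 CPM, from 24 and 30 reads. The mTDE libraries thus held more reads of miR-615 although they were shallower. The exact 95% binomial intervals were 1.097 to 5.01 CPM and 1.11 to 5.71 CPM in the pTDE replicates, against 3.59 to 12.1 CPM and 7.21 to 21.2 CPM in the mTDE replicates, so that both pTDE replicates overlapped with mTDE replicate 1 within counting error and neither did with mTDE replicate 2. Its mean was 2.65 ± 0.162 CPM in pTDEs, against 9.91 ± 4.20 CPM in mTDEs (SD, n = 2 each), a 3.73-fold higher level in mTDEs. The log2 fold change of -1.52 on the log2(CPM + 1) scale understates this ratio at such low levels, and it did not pass the test (standard error 0.73, limma adjusted p = 0.323).

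**Figure D1:**
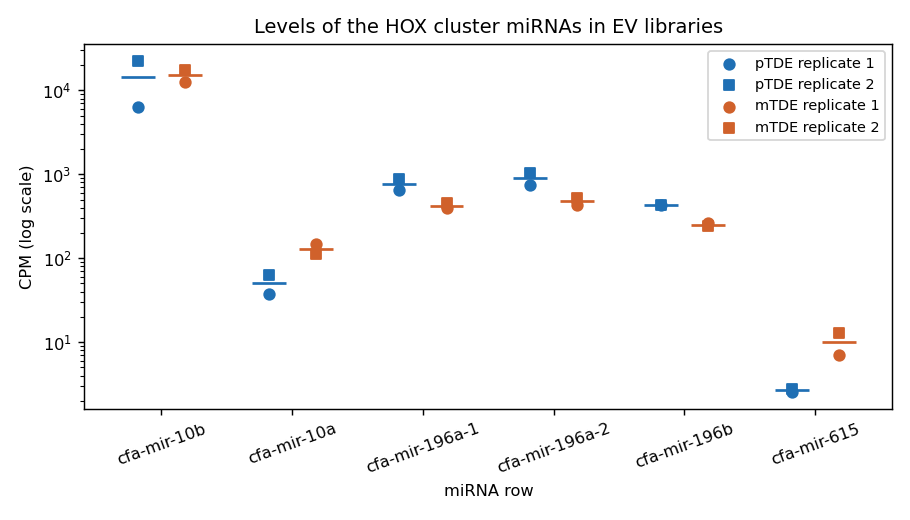
Level in CPM (log axis) of each HOX cluster miRNA row in the 4 libraries, with circles for replicate 1, squares for replicate 2 and a bar at the mean of each cell line (n = 2). miR-10b lies above all other members and its libraries overlap between pTDEs and mTDEs, whereas the miR-196 rows are higher and miR-10a and miR-615 lower in both pTDE libraries.

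The order of the mean levels was the same in both cell lines, namely cfa-mir-10b, cfa-mir-196a-2, cfa-mir-196a-1, cfa-mir-196b, cfa-mir-10a and cfa-mir-615 from high to low. The levels compare mature miRNAs of nearly equal length, so no scaling by length was applied. Libraries of the neighbors cfa-mir-196a-2 and cfa-mir-196a-1 overlapped in both cell lines, and no other neighbors in this order did.

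Of the 6 members, 0 had a limma adjusted p-value under 0.05, where 1.84% of the 326 rows did. At an unadjusted p-value under 0.05 the count was also 0 of 6, against 19.6% of all rows. The libraries of the cell lines did not overlap, with pTDEs higher, in 3 of 6 members (cfa-mir-196a-1, cfa-mir-196a-2 and cfa-mir-196b), and 26.1% of all rows met this rule. They did not overlap, with pTDEs lower, in 2 of 6 members (cfa-mir-10a and cfa-mir-615), against 27.3% of all rows. Among the 3 higher members, cfa-mir-196a-1 and cfa-mir-196a-2 may count the same reads and are not fully separate. The median log2 fold change was 0.24 over the members and -0.03 over all rows, and the median size of the change was 0.86 and 0.95. Scaling by median-ratio size factors shifted the median of all rows by 0.25, and the sign of each member stayed as given, with log2 fold changes of -0.064 for cfa-mir-10b, -1.14 for cfa-mir-10a, 1.12 for cfa-mir-196a-2 and -1.32 for cfa-mir-615.

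**Figure D2:**
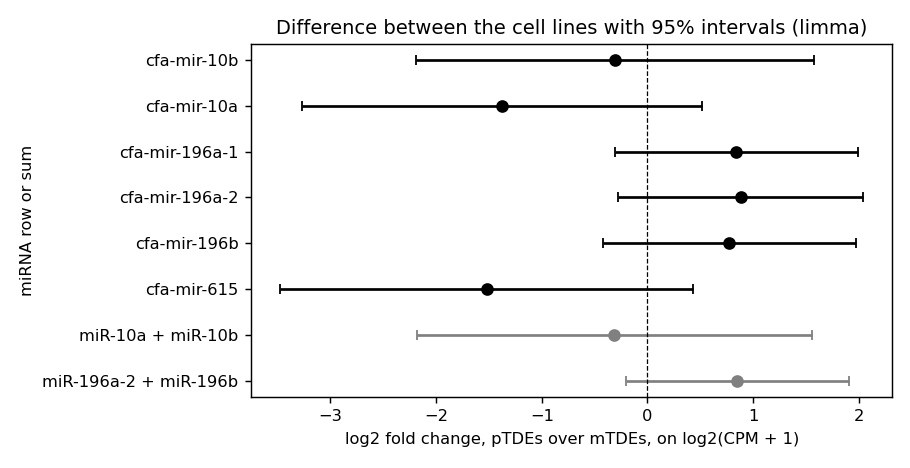
log2 fold change, pTDEs over mTDEs on log2(CPM + 1), of each member row (black) and of the summed miR-10 and miR-196 levels (grey), with 95% intervals from limma as bars. All 8 intervals include 0, the miR-196 rows lie to the right of it, and miR-10a and miR-615 lie to the left.

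The near-identical relatives cannot be taken as fully separate measurements. Mature miR-10a and miR-10b differ by very little, as do miR-196a and miR-196b, and both miR-196a genes give the same main product, so that the counting could share reads among them. The level of cfa-mir-196a-2 over that of cfa-mir-196a-1 was 1.14 and 1.19 in the pTDE replicates, against 1.11 and 1.15 in the mTDE replicates, nearly constant over the libraries. How many reads the rows of both copies had in common was not tested. Summed as cfa-mir-10a plus cfa-mir-10b, miR-10 was at 6435 and 22763 CPM in the pTDE replicates, against 12728 and 17741 CPM in the mTDE replicates, with a log2 fold change of -0.31 (limma adjusted p = 0.818). Summed as cfa-mir-196a-2 plus cfa-mir-196b, miR-196 was at 1181 and 1476 CPM in the pTDE replicates, against 699 and 766 CPM in the mTDE replicates. All pTDE values of the sum were higher, by 0.85 on the log2 scale with a standard error of 0.39 (limma adjusted p = 0.309).

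Ratios within a library do not depend on its total. miR-10a made up 0.585% and 0.281% of miR-10 in pTDE replicates 1 and 2, against 1.16% and 0.634% in mTDE replicates 1 and 2. The pTDE values were lower, with means of 0.433 ± 0.215% and 0.899 ± 0.375% (SD, n = 2 each), but the gap between pTDE replicate 1 and mTDE replicate 2 was smaller than that between replicates of either cell line. The share differed 4.14-fold between the highest and the lowest library. miR-196b made up 37.0% and 29.0% of miR-196b plus miR-196a-2 in the pTDE replicates, against 37.8% and 31.3% in the mTDE replicates, and these overlapped. In an exact two-sided permutation test, p was 0.333 for the miR-10a share and 0.667 for the miR-196b share, where 0.333 is the smallest value that 2 against 2 libraries allow.

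Ratios between members of 1 HOX cluster are given as a description, with no test, since they were chosen after the values were seen and each pairs a row that was higher with a row that was lower in both pTDE libraries. In the HOXC cluster, the level of cfa-mir-615 was 0.341% and 0.264% of that of cfa-mir-196a-2 in the pTDE replicates, against 1.596% and 2.44% in the mTDE replicates. In the HOXB cluster, the level of cfa-mir-10a was 5.74% and 7.27% of that of cfa-mir-196a-1 in the pTDE replicates, against 37.7% and 24.6% in the mTDE replicates. None of these rows passed the limma test on its own.

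**Figure D3:**
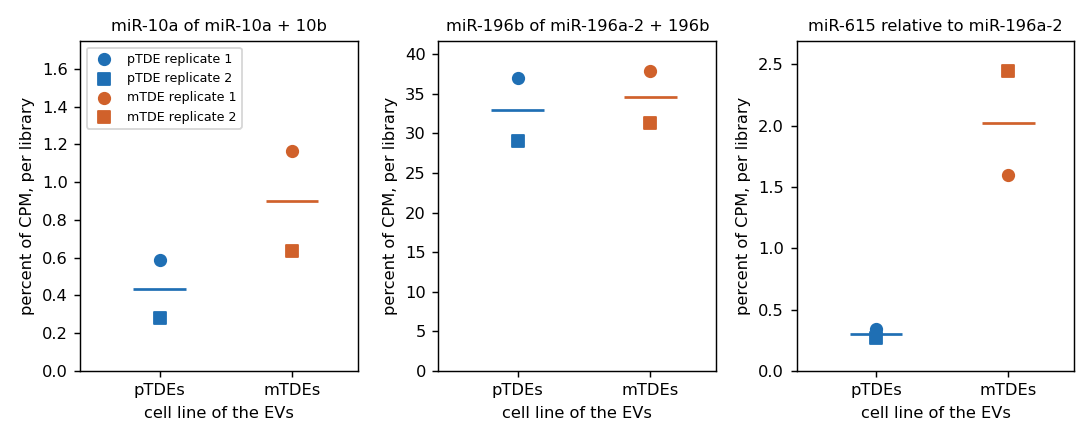
Ratios of CPM within each library, in percent, for miR-10a among miR-10, miR-196b among miR-196 and miR-615 relative to miR-196a-2, with circles for replicate 1, squares for replicate 2 and a bar at the mean of each cell line (n = 2). The miR-196b share overlaps between pTDEs and mTDEs, and miR-615 relative to miR-196a-2 is below 0.35% in pTDEs and above 1.5% in mTDEs.

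The wider miR-10 family also holds miR-99 and miR-125, which derive from related genes outside the HOX clusters. Its 6 rows in the table, cfa-mir-99a-1, cfa-mir-99a-2, cfa-mir-99b, cfa-mir-125a, cfa-mir-125b-1 and cfa-mir-125b-2, form 5 distinct ones, since both cfa-mir-99a rows were equal. Of these 5, 0 passed the limma test in either direction, where 1.84% of all rows did, and 0 of 5 had an unadjusted p-value under 0.05, where 19.6% of all rows did. The median log2 fold change was -0.29 over the 5 rows and -0.03 over all rows. It was -0.047 with median-ratio size factors, and 4 of the 5 rows overlapped between the cell lines, so that no direction is given for the family. The median turned to 0.089 when the deposited values were read as CPM, a reading not adopted here. cfa-mir-99b did not overlap between the cell lines, at 1678 and 3497 CPM in the pTDE replicates, against 5870 and 3580 CPM in the mTDE replicates, with the closest libraries only 1.02-fold apart (limma adjusted p = 0.386). cfa-mir-99a-1 was at 10738 and 23215 CPM in the pTDE replicates, against 21503 and 25710 CPM in the mTDE replicates, a level like that of miR-10b. The 2 cfa-mir-125b rows and cfa-mir-125a overlapped between the cell lines.

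For each member, the 2 known miRNAs with the most similar pattern over the 4 libraries were found by the root mean square difference of log2(CPM + 1) after centering each row on its own mean. The search covered 226 distinct rows, and with 4 libraries such likeness is a description only. The row nearest to cfa-mir-10b was cfa-mir-25, with a difference of 0.25, followed by cfa-mir-99a-1 with 0.30, and both were also lowest in pTDE replicate 1. cfa-mir-10a was nearest to cfa-mir-183 (0.24) and cfa-mir-99b (0.28), both lowest in pTDE replicate 1 and highest in mTDE replicate 1. The closest likeness was that of cfa-mir-196b to the cfa-mir-26a-1 and cfa-mir-26a-2 rows, with a difference of 0.08 for each. cfa-mir-26a-1 was at 8265 and 6982 CPM in the pTDE replicates, against 4756 and 4366 CPM in the mTDE replicates. Both cfa-mir-196a rows were nearest to cfa-let-7a-1 and cfa-let-7a-2, with differences of 0.16 for cfa-mir-196a-1 and 0.20 for cfa-mir-196a-2. cfa-mir-615 was nearest to cfa-mir-1839 (0.09), at 65.9 and 65.5 CPM in the pTDE replicates, against 160 and 238 CPM in the mTDE replicates, and then to cfa-mir-1843 (0.24).

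**Figure D4:**
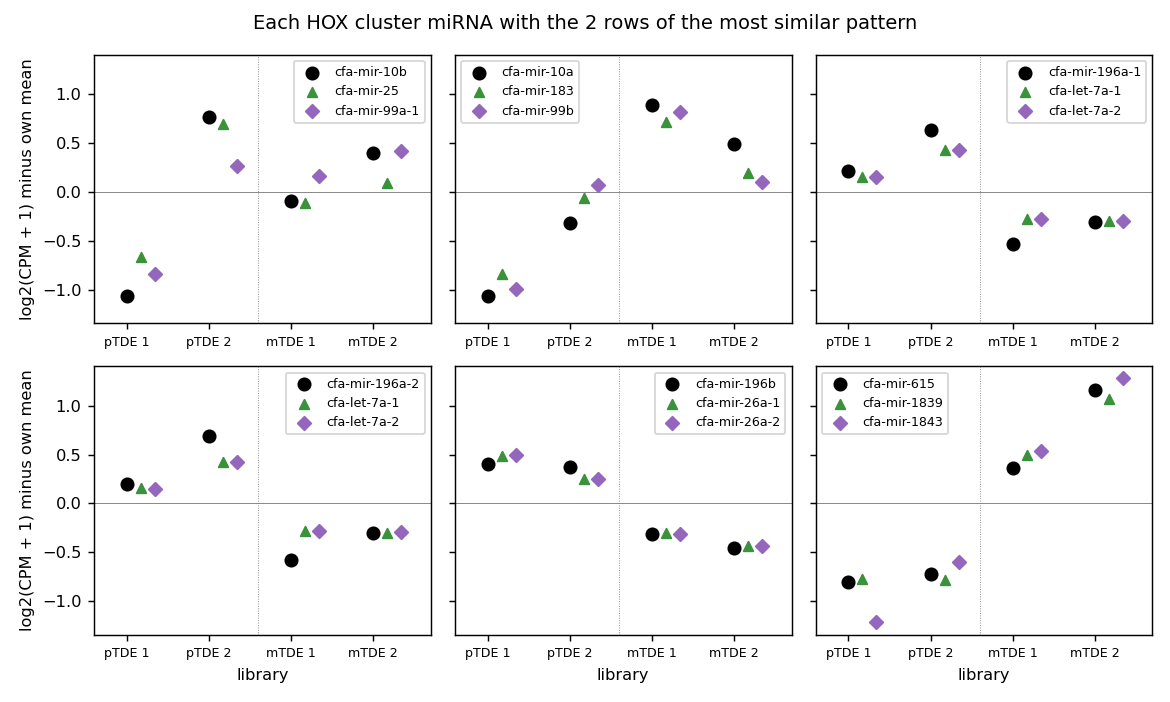
log2(CPM + 1) of each member (black) and of the 2 most similar known miRNAs (triangles and diamonds) in the 4 libraries, each centered on its own mean. miR-10b and miR-10a are lowest in pTDE replicate 1, the miR-196 rows lie above 0 in pTDEs and below 0 in mTDEs, and miR-615 the other way around.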

How the data were processed

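Small RNA was sequenced in 2 EV libraries from each of the canine cell lines CHMp and CHMm. The authors trimmed and length-selected reads with cutadapt, merged forward and reverse reads of a sample, and used miRDeep2 on CanFam3.1 to quantify known miRNAs together with predicted ones; tool versions are not given in the sources used here. The deposited numbers are handled here as a score, because their low values are unevenly spaced. Their totals, 999989 to 1000010 per library, are what CPM would also give, and the paper reports that CPM values were used. The authors' comparison, which holds log2 values (a fold change and a mean CPM), a test score and p-values, is also in the deposited table and was not used.

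CPM were recovered as 2 to the power of (score/s), minus 1, with s set per library so that the total is 1000000. The worth of 1 read was found from the spacing of values under 20 CPM. limma 3.58.1 (R 4.3.3) was fitted to log2(CPM + 1) with a mean-variance trend on 326 rows, those that either cell line showed above 0 in both replicates. P-values were adjusted after Benjamini-Hochberg over all of these rows. The fit had a prior of 2.4 degrees of freedom, so that each test borrowed its error largely from other rows. Python 3.11.15, numpy 2.4.6, pandas 2.3.3 and scipy 1.17.1 were used for the rest. On 10 simulated data sets of 673 rows for this comparison, limma called 98.5% of 600 rows changed by 4 on the log2 scale. Of 605 calls, 2.31% were false, and smaller changes were not simulated. Beyond counting error, all simulated rows had the same relative spread between replicates, unlike the real rows. These shares therefore do not carry over to the real data. There, cfa-mir-204 at 4.68 was not called (limma adjusted p = 0.112), whereas cfa-mir-141 at -6.28 was (limma adjusted p = 0.040).

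All members were named, with the miR-10 family rows and, for each member, the 2 known rows of most similar pattern. Members and lists were chosen with earlier results of these data known. Mature sequences were not used here.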

Additional observations from a re-analysis of the deposited data

How the results depend on the processing

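No member was called in either direction in the 15 alternative fits in which it was tested, nor were the sums that replaced miR-10 and miR-196 in the fit of summed relatives. The 16 alternatives were pseudocounts of 0.1 and 5 CPM, median-ratio size factors, the deposited values read as CPM, filters on rows above 0 in any library or with a mean of at least 10 CPM (which removed cfa-mir-615), no trend, limma voom on the recovered reads, a replicate block, identical rows counted once, known miRNAs only, summed relatives (which left only cfa-mir-615 as a row of its own), and 4 fits that each left out 1 library. The lowest adjusted p-value of a member over these was 0.179, and 5 values had an unadjusted p-value under 0.05. The direction of cfa-mir-10a, cfa-mir-196a-1, cfa-mir-196a-2, cfa-mir-196b and cfa-mir-615 held in every fit that included them. That of cfa-mir-10b, -0.31, reversed to 0.082 when the deposited values were read as CPM, and lay between -1.22 and 0.61 when any 1 library was removed. The cause was not tested. The miR-196b share, -1.59 percentage points in pTDEs, lay between -5.57 and 2.40 when any 1 library was removed, and the miR-10a share, -0.47, between -0.73 and -0.20. In the fit with a replicate block, cfa-mir-10b was at -0.31 (adjusted p = 0.748) and the rows called in the table went from 6 to 7. The labels do not say what the numbers share, and the deviations of same-numbered libraries correlated at 0.15 over the 326 rows. Whole reads could not be recovered above 105 to 257 CPM, so that no counting interval is given for miR-10b or miR-196a.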
